A study of Mus musculus with 4 samples.

Results

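Goblet and secretory epithelial genes of the intestine were examined in tumour-associated macrophages from mouse gastrointestinal stromal tumour (GIST), a tumour of the gut wall. The list names 9 genes, chosen as secretory products of intestinal epithelium: Agr2, Fcgbp, Zg16, Muc2, Tff3, Spink4, Guca2a, Lypd8 and Oit1. Of these, 8 had at least 1 probe set with a single gene symbol, 11 probe sets in all, among 12393 genes named on the array, and all 8 passed the signal filter that left 8145 genes to test. Muc2 had no such probe set and was not analysed here. The macrophages were sorted by flow cytometry from GIST mice given vehicle or imatinib, a kinase inhibitor of Kit and other receptors, for 2 weeks (600 mg/L, in drinking water). Each group is a pool of cells from 8 mice, run on 2 expression arrays, so the comparison is of 2 vehicle with 2 imatinib arrays. Genotype, strain and age of the mice were not given in sources used here. The titles call the arrays of a group biological replicates while the design text describes duplicates of a pool, so p-values measure only the spread between these arrays, which may be technical.

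Goblet cells are the mucus-making cells of the intestinal lining. They store gel-forming mucin, chiefly Muc2, in granules and release it with proteins that build, protect or repair the mucus layer, while absorptive enterocytes and colonocytes take up ions, water and nutrients. The labels name macrophages as the sorted population, and which cells gave the signals of these genes was not tested.

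The 8 measured genes were all lower in the imatinib arrays. Lypd8, Oit1 and Guca2a kept 10.6% to 21.7% of their mean vehicle signal, Spink4, Zg16 and Agr2 31.3% to 38.8%, and Tff3 and Fcgbp 49.1% and 51.7%. The lowest of these shares, that of Oit1, rests on imatinib replicate 1: without it the log2 difference of Oit1 was -2.03, smaller than that of Lypd8. These genes were proposed with earlier results of these data known, so their shared direction is a description. For comparison, 8.73% of all tested genes were called lower with imatinib by limma at a Benjamini-Hochberg adjusted p below 0.05, 6.8% were called higher, and in 29.9% both imatinib arrays lay below both vehicle arrays. The median log2 difference of the 8 genes, imatinib minus vehicle, was -1.53, beside -0.02 over all tested genes. Of the 8 genes, 6 were called and at least 2-fold lower, beside 3.88% of all tested genes. In bulk arrays, fewer cells of a type and less RNA per cell cannot be told apart.

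The stretches just upstream of the transcription start are shown for the 5 measured genes that have an entry in the RefSeq promoter table (build GRCm38.p6), Oit1, Lypd8 and Guca2a with the larger differences and Agr2 and Fcgbp with smaller ones. Of the 9 listed genes 6 had an entry, Muc2 included, and Zg16, Tff3 and Spink4 had none. Each is the 250 bases before the start, 5′ to 3′ on the gene's strand. Capitals mark matches on either strand to 6 short motifs, spelled out after the sequences.
Oit1 (chr14:8378764-8379013, - strand): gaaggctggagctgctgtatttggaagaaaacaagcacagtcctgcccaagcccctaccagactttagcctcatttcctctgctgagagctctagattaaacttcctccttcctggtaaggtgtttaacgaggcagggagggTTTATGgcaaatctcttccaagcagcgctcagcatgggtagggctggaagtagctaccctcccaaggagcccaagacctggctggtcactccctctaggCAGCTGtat
Lypd8 (chr11:58378782-58379031, + strand): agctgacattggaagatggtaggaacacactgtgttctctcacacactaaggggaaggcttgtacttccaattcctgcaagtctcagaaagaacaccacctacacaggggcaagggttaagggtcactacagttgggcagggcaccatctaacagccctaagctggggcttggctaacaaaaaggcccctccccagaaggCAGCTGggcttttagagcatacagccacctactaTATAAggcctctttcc
Guca2a (chr4:119637482-119637731, + strand): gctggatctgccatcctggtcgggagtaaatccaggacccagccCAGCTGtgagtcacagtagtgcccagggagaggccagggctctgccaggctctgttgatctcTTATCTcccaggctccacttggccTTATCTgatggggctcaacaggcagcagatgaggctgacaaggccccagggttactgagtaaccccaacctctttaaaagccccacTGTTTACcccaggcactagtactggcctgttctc
Agr2 (chr12:35992675-35992924, + strand): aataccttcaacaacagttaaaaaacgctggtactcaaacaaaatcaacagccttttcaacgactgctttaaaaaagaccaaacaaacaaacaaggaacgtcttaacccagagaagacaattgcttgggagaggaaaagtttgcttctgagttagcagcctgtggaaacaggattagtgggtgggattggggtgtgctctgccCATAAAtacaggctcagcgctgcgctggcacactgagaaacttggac
Fcgbp (chr7:28070986-28071235, + strand): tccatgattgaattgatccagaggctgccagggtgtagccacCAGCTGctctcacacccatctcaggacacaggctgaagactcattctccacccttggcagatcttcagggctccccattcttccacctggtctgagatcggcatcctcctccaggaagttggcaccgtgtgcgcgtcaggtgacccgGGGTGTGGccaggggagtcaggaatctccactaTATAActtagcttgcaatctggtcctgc
The E-box CAGCTG stood in the Oit1, Lypd8, Guca2a and Fcgbp stretches, against 13.0% of the 32851 stretches of this length in the table. The TATA-like core TATAA lay 16 bases before the start of Lypd8 and 28 before that of Fcgbp, and 22.8% of all stretches held it. Guca2a had the GATA factor motif AGATAA at 2 places on the opposite strand, where 9.99% of all stretches hold it at least once. It also had the forkhead motif TGTTTAC (3.17%). The CDX factor motif TTTATG was in Oit1 and, on the opposite strand, in Agr2 (10.8% of all stretches). Fcgbp had GGGTGTGG, a motif of Krüppel-like factors (3.2%). No motif was shared by all 5 genes. The motifs were chosen after the sequences had been seen, and a match is a description of letters and not of binding.

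The first group of genes builds the mucus gel. Fcgbp encodes a large mucus protein that associates with Muc2. Vehicle arrays read 480 and 636, and imatinib arrays 282 and 294 (557.8 ± 110.5 to 288.2 ± 8.41, SD, n = 2). Both imatinib arrays lay below both vehicle arrays, which differed more between themselves than the imatinib arrays did. The log2 difference was -0.87 ± 0.16 (SE; limma adjusted p = 0.0033). Zg16, a lectin-like protein of secretory granules that binds bacteria in the mucus, had signals of 4879 and 5107 with vehicle and 1852 and 1889 with imatinib on its brightest probe set. The arrays of a group lay close together and the groups were far apart. The log2 difference was -1.40 ± 0.08 (SE; limma adjusted p = 8.4e-07).

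Zg16 was also read by dimmer probe sets. One gave 1700 and 1868 with vehicle against 796 and 776 with imatinib, and the other gave 448 and 488 against 264 and 256. All moved the same way, but the imatinib mean was 37.5% of the vehicle mean on the brightest, 44.1% on the next and 55.6% on the dimmest. The brightest carries the suffix of a probe set that may hybridise to several transcripts. Tested probe set by probe set, all 11 probe sets of the 8 genes were called lower, beside 7.35% of all probe sets tested.

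Agr2 encodes a disulfide isomerase of the endoplasmic reticulum needed for mucin production. Its signals were 434 and 394 with vehicle and 183 and 138 with imatinib. The 2 groups did not overlap, and the log2 difference was -1.22 ± 0.18 (SE; limma adjusted p = 0.00077). A dimmer Agr2 probe set gave 269 and 412 with vehicle and 60.5 and 109 with imatinib, again without overlap but with a wider spread within each group.

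The next genes encode small secreted peptides. Tff3, the intestinal trefoil peptide of mucosal repair, had signals of 1375 and 1373 with vehicle and 742 and 608 with imatinib. The vehicle arrays were nearly equal and the imatinib arrays were apart by more, yet both were well below vehicle. The difference was -0.999 ± 0.117 on the log2 scale (SE; limma adjusted p = 0.00017). Spink4, a Kazal-type protease inhibitor of goblet cells, had signals of 4457 and 4450 with vehicle and 1395 and 1392 with imatinib. Within each group the arrays differed by less than 1%. On the log2 scale the groups differed by -1.65 ± 0.08 (SE; limma adjusted p = 3.0e-07). Guca2a encodes guanylin, the ligand of the guanylate cyclase receptor that controls salt and water secretion. Its signals were 1860 and 1870 with vehicle and 404 and 405 with imatinib, equally tight within groups, and the groups differed by -2.12 ± 0.10 on the log2 scale (SE; limma adjusted p = 2.9e-07).

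The remaining genes differed most. Lypd8 encodes a protein of the colonic epithelial surface, shed into the lumen, that keeps flagellated bacteria from the epithelium. Its signals were 5517 and 6000 with vehicle and 994 and 875 with imatinib. Both groups were bright and did not overlap, and the log2 difference was -2.58 ± 0.09 (SE; limma adjusted p = 5.0e-08). Oit1, also named Fam3d, encodes a secreted protein of the gut epithelium. Its signals were 391 and 384 with vehicle and 11.9 and 70.4 with imatinib. Both imatinib values lay below the signal of about 79.8 at which genes entered the test, so the gene passed that filter through the vehicle arrays. Oit1 differed by -2.65 ± 0.34 on the log2 scale (SE; limma adjusted p = 0.00031), which was -2.03 without imatinib replicate 1, the lower array.

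**Figure D1:**
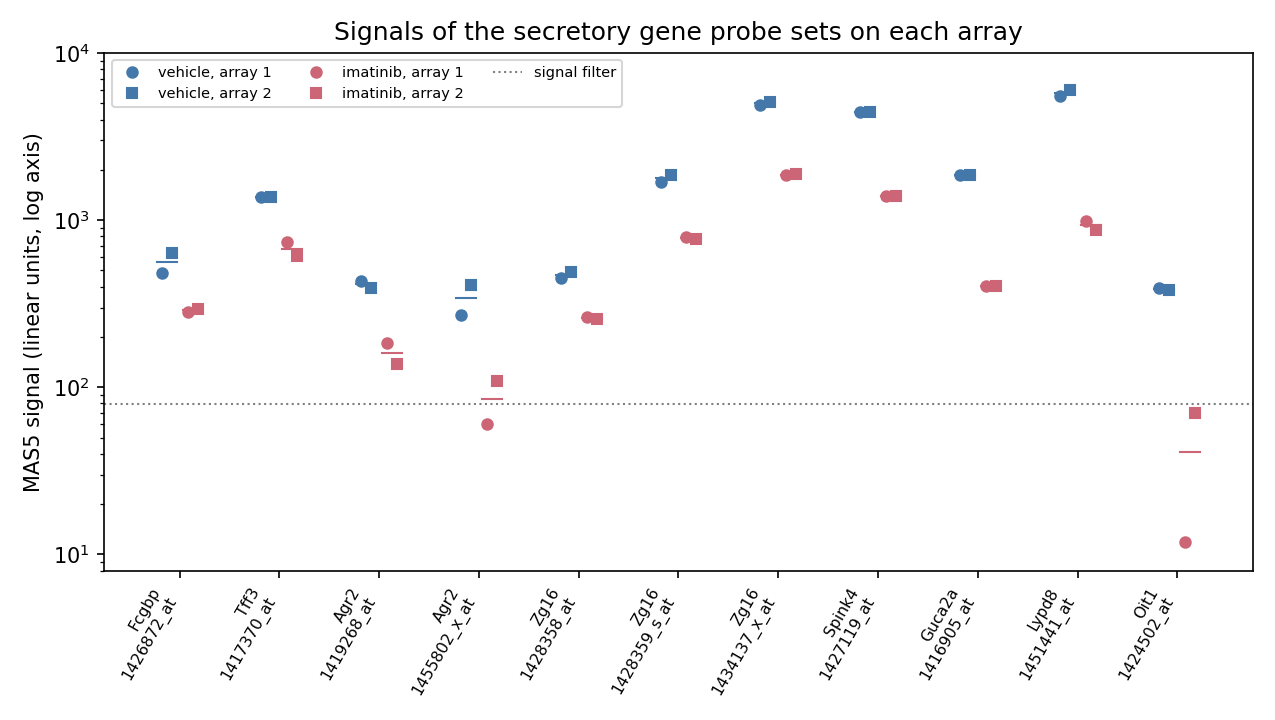
MAS5 signals of the 11 probe sets of the 8 measured secretory genes (log axis), with vehicle arrays in blue, imatinib arrays in red, short lines at the group means and a dotted line at the signal filter. The imatinib points lie below the vehicle points for every probe set, and the imatinib mean ranges from 55.6% of the vehicle mean for the dimmest Zg16 probe set to 10.6% for Oit1, whose imatinib points are both below the dotted line.

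Absorptive genes were also lower. The list holds 30 genes of enterocytes and colonocytes, of which 21 had a probe set and 11 passed the signal filter. Transporter, brush border and lipid-handling genes are among them, as are cytosolic enzymes and a keratin. Of these 11, 10 were called lower, beside 8.73% of all tested genes, and none higher. Car4, a membrane carbonic anhydrase, was not called (log2 difference -0.49 ± 0.24, SE). The log2 differences of the 11 ran from -2.65 for the sulfotransferase gene Sult1b1 to that of Car4, with a median of -1.90 and a mean of -1.68. The range for the 8 secretory genes was -2.65 to -0.87, with a mean of -1.69, so the lists had different medians and nearly equal means. Genes that passed the filter only through the vehicle arrays had to differ, so these counts describe the tested genes and not the whole list. None of the 10 absorptive genes below the filter was called when the filter was dropped, where 4.37% of all genes were called lower. Some of them had both imatinib arrays below both vehicle arrays and others had both above. The absent calls therefore do not show that these dim genes were unchanged.

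The absorptive gene Car1, the cytosolic carbonic anhydrase of colonocytes, had signals of 10623 and 11186 with vehicle and 2098 and 2128 with imatinib. The groups were far apart, and the log2 difference was -2.35 ± 0.08 (SE). The differences were -2.28 ± 0.12 for Fabp2, the intestinal fatty acid-binding protein, -2.26 ± 0.38 for the brush border protease gene Mep1b and -2.18 ± 0.14 for Krt20, a keratin of mature surface cells. Mep1b read 285 and 363 with vehicle but 88.4 and 13.7 with imatinib. Its imatinib mean of 51.1 lay below the filter signal, so it passed the filter through the vehicle arrays. The same held for the transporter gene Slc5a1, also called lower, with 183 and 191 with vehicle and 67.8 and 58.9 with imatinib. Aqp8, a water channel of colonocytes, had a difference of -1.14 ± 0.13, close to that of Agr2.

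To compare the secretory with the absorptive genes on each array, the mean log2 value of the 11 absorptive genes was subtracted from every gene and the fit was repeated. On that scale 4 of the 8 secretory genes were higher and 3 lower, so the list split in both directions. Which cell type the signal of each gene came from was not tested. Fcgbp was higher by 0.81 ± 0.16 (SE; limma adjusted p = 0.00053), Tff3 by 0.68 ± 0.12 (adjusted p = 0.00018), Agr2 by 0.45 ± 0.18 (adjusted p = 0.028) and Zg16 by 0.27 ± 0.08 (adjusted p = 0.0067). These 4 genes therefore lost less signal than the absorptive mean. Guca2a, Lypd8 and Oit1 lost more, with differences of -0.44 ± 0.10 (limma adjusted p = 0.0016), -0.91 ± 0.09 (adjusted p = 3.4e-06) and -0.97 ± 0.35 (adjusted p = 0.019). Spink4 differed by 0.02, with a 95% interval from -0.16 to 0.20.

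Of all tested genes, 97% were higher on the absorptive scale and 0.638% lower, as most genes fell less than the absorptive mean, and adjustment then hardly changes a p-value. The test sets each gene against the mean of 11 genes that themselves ranged widely: 4 of the 11 were lower and 4 higher than it. The split depended on which absorptive genes formed the mean. With the 10 dim ones included by dropping the filter, 0 of the 8 secretory genes were higher and 5 lower, and Zg16 reversed to -0.41 (limma adjusted p = 0.0075). With the mean of each gene's probe sets, Agr2 was not called (0.16, limma adjusted p = 0.34). Zg16 was not called with a pseudocount of 64 (0.14), quantile normalization (0.15) or no variance trend (adjusted p = 0.051), nor Guca2a at the 60th percentile filter (-0.31, adjusted p = 0.083), nor Oit1 without the trend (adjusted p = 0.057). Without a filter Fcgbp was not called either (0.12), and Spink4 was called higher with a pseudocount of 1 (0.23, limma adjusted p = 0.026). Without imatinib replicate 1, Agr2 (0.29, limma adjusted p = 0.17) and Oit1 (-0.35, adjusted p = 0.13) were not called. Either vehicle array left out also ended both calls.

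General epithelial markers gave a second reference. All 13 tested markers were called lower with imatinib, beside 8.73% of all tested genes, with a median log2 difference of -1.94. The imatinib means of Cldn4 (66.2) and Esrp1 (78.9) lay below the filter signal. Both therefore passed the filter through the vehicle arrays and had to be lower, so the count describes the tested markers only. Relative to their mean on each array, 5 secretory genes were higher (Agr2, Fcgbp, Zg16, Tff3 and Spink4), 2 were lower (Lypd8 and Oit1) and Guca2a was not called, where 98.3% of all genes were higher and 0.233% lower. The imatinib arrays were far apart in Cldn4 (19.3 and 113) and Esrp1 (38.8 and 119), and on this scale limma estimated no finite prior degrees of freedom, so it treats the spread as known and its p-values are not printed. Leaving out both genes, a choice made after seeing the data, gave 11 markers and a finite prior. On them Fcgbp was higher by 1.14 ± 0.16 (SE; limma adjusted p = 4.4e-05), Tff3 by 1.01 ± 0.12 (adjusted p = 8.3e-06), Agr2 by 0.78 ± 0.17 (adjusted p = 0.0013), Zg16 by 0.60 ± 0.08 (adjusted p = 2.8e-05) and Spink4 by 0.35 ± 0.08 (adjusted p = 0.0016). Lypd8 was lower by a difference of -0.58 ± 0.09 (adjusted p = 0.00013). Guca2a (-0.11, 95% interval -0.34 to 0.12) and Oit1 (-0.64, 95% interval -1.42 to 0.14) were not called, beside 0.246% of all genes called lower and 98.3% higher. With the median of the 13 markers in place of their mean, also added after seeing the data, Guca2a was called lower (-0.39, limma adjusted p = 0.022) and Spink4 was not called (0.08).

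**Figure D2:**
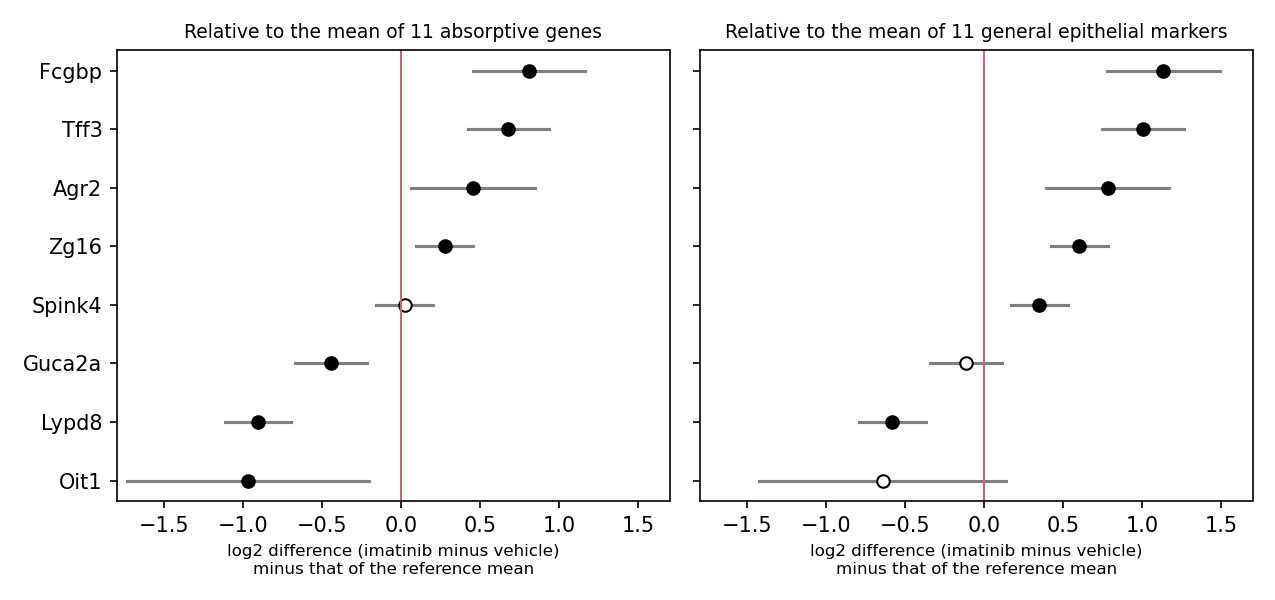
Log2 differences of the secretory genes relative to the mean of 11 absorptive genes (left) and of 11 general epithelial markers without Cldn4 and Esrp1 (right), with 95% intervals as bars, filled points called by limma and open points not called. Fcgbp, Tff3, Agr2 and Zg16 lie to the right of 0 in both panels and Lypd8 to the left, while Spink4 crosses 0 on the left and Guca2a and Oit1 on the right.

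Other listed goblet genes moved in part, and whether each is particular to goblet cells was not tested. Of 25 further genes listed for goblet cells, 10 passed the signal filter, and of these 6 were called lower, 0 higher and 4 not called, with a median log2 difference of -1.13 (5 lower under quantile normalization and with equal array medians). Among all tested genes, 8.73% were called lower. The membrane mucin gene Muc13 (-2.18 ± 0.11, SE), Muc3, another membrane mucin (-2.09 ± 0.12), and the kallikrein gene Klk1 (-2.06 ± 0.15) were lower. So were the sensor gene Nlrp6 (-1.45 ± 0.17) and Retnlb, which encodes a goblet cell protein active against bacteria (-1.35 ± 0.20). The sixth was Atoh1, the factor that commits cells to the secretory lineage, a dim gene with signals of 165 and 136 with vehicle and 81.3 and 49.6 with imatinib (-0.92 ± 0.27, limma adjusted p = 0.040), which completes the count and was chosen after its values were seen. Its call is the one lost under quantile normalization and equal array medians. The imatinib mean of Atoh1, 65.5, lay below the filter signal, so it passed the filter through the vehicle arrays. Klf4, a factor of goblet cell maturation that myeloid cells also express, had signals of 4362 and 4408 with vehicle and 5248 and 4615 with imatinib. It was not called, but was lower (-0.36) with the macrophage markers set equal across arrays.

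Below the signal filter lay 13 of the goblet genes. Among them Clca1, a secreted goblet cell protein, had signals of 73.8 and 47.4 with vehicle and 6.79 and 3.10 with imatinib. It was the only one of the 13 called lower when the filter was dropped (limma adjusted p = 0.027, where 4.37% of all genes were called lower). Spdef, the factor of goblet cell differentiation, had signals of 50.5 and 33.3 with vehicle and 8.01 and 57.4 with imatinib, so its groups overlapped.

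Enzymes that build the sugar chains of mucins differed less. Of 9 tested, 3 were lower, 1 higher and 5 not called, with a median of -0.39. Among all tested genes, 8.73% were called lower and 6.8% higher. Galnt4, which starts such chains, fell by 0.75 on the log2 scale (± 0.12, SE), and its relatives Galnt7 (-0.41) and Galnt3 (-0.39) were lower too, but not called with equal array medians. The sialyltransferase gene St3gal4 was higher (0.64 ± 0.19, limma adjusted p = 0.047; 0.12 and not called with the macrophage markers set equal across arrays). C1galt1c1, the chaperone of the enzyme that extends these chains, had a difference of 0.06 and was not called. Many cell types use these enzymes.

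Genes of other secretory lineages were mostly too dim to test. Of 12 genes listed for Paneth cells and secreted antibacterial lectins, 3 were tested: Reg3b had signals of 4069 and 3646 with vehicle against 1426 and 1251 with imatinib (-1.51 ± 0.10, SE), and Reg4, also made by enteroendocrine cells, 1106 and 1235 against 390.0 and 478 (-1.37 ± 0.13). Both were lower without overlap. Lyz1 was higher (0.37 ± 0.07) but is nearly identical to the macrophage lysozyme gene Lyz2 (0.86 ± 0.07, SE), so its probe set cannot be assigned to Paneth cells, and on the macrophage-marker scale it was -0.16. Of 16 enteroendocrine genes, 3 were tested and 2 were lower, the hormone gene Sct (-1.45 ± 0.26), which reached the test through its vehicle signals of 159 and 164 while both imatinib signals, 36.5 and 41.3, were below the filter, and the granule protein gene Scg5 (-1.15 ± 0.19), while Chgb was not called (-0.87 ± 0.28, limma adjusted p = 0.063).

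**Figure D3:**
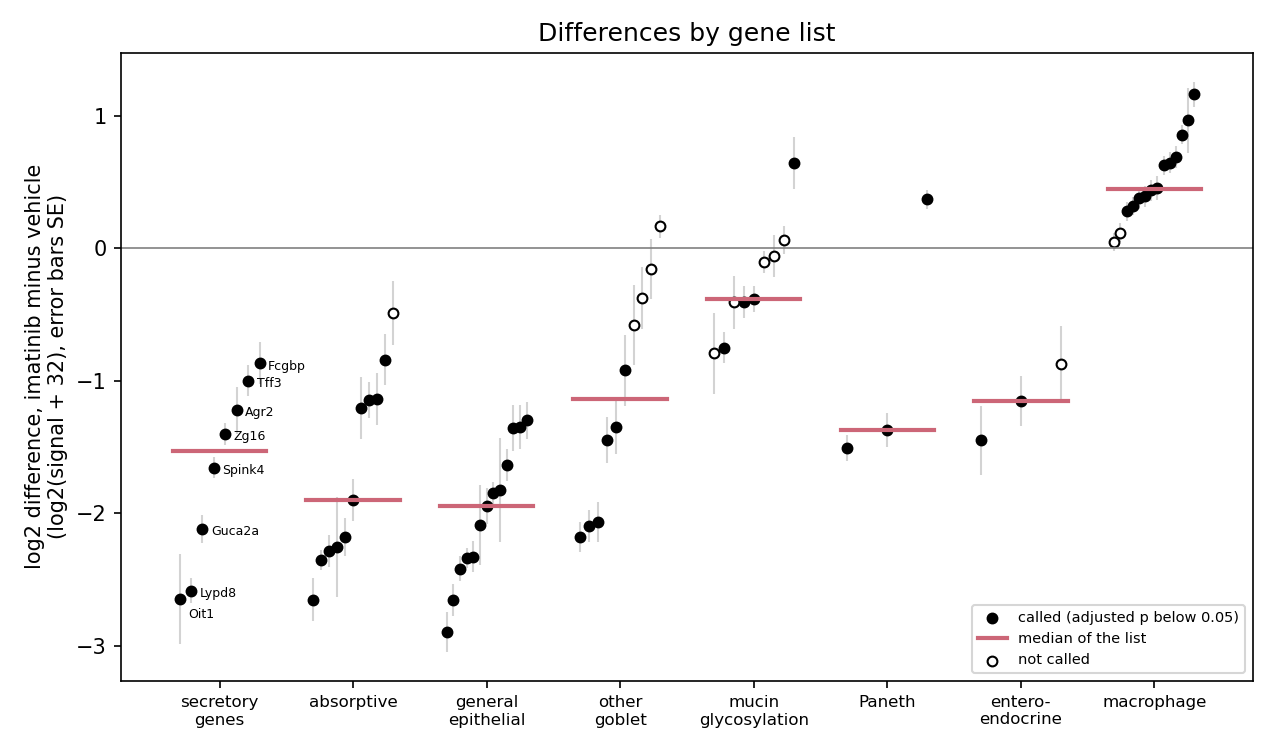
Log2 differences (imatinib minus vehicle) with SE for the tested genes of 8 lists; filled points were called by limma at an adjusted p below 0.05, open points were not, and red lines are list medians. The secretory genes spread from -2.65 for Oit1 to -0.87 for Fcgbp around a median of -1.53, between those of the absorptive genes (-1.90) and of the other goblet genes (-1.13), while the macrophage markers lie at or above 0.

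The sorted population carried its labelled markers. Of 14 tested macrophage markers, 12 were called higher with imatinib, beside 6.8% of all tested genes, and none lower. The signals of these 14 markers summed to 125348 and 129416 in the vehicle arrays against 168960 and 161924 in the imatinib arrays. Signals of the 13 epithelial markers summed to 31011 and 31404 against 6423 and 6412, with 1 further marker, Prss8, below the filter. Those of the 8 secretory genes summed to 19393 and 20213 against 5864 and 5670. The epithelial marker signals thus differed between the same groups that the results above compare, and their part in those results was not tested. Gapdh control probes gave a 3'/5' ratio, a measure of RNA integrity, of 2.91 and 2.76 with vehicle against 2.34 and 2.09 with imatinib. For actin control probes the ratio was higher on every array, 3.99 and 3.58 with vehicle against 3.06 and 2.71 with imatinib. The part of RNA integrity in the results was not tested either.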

How the data were processed

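Signal intensities of 4 one-colour Affymetrix arrays (2 vehicle, 2 imatinib; 200 ng of RNA each) were taken as deposited. Per the submitters' processing notes, the authors made these linear intensities with MAS5 in Expression Console; no version is given in sources used here. Trimmed by 2% at each end, every array had a mean of 500.3. MAS5 subtracts background, so dim signals are noisy, and its scaling ties each gene to the bright part of the array. The number of arrays limits the precision.

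Of 22690 probe sets, 64 controls were left out; of the others 20380 had 1 gene symbol, 691 several and 1555 none, and only those with 1 symbol were named. Signals were transformed as log2(signal + 32), so fold changes of dim genes are understated. A gene was represented by its brightest probe set and tested if its mean log2 value was at or above the 40th percentile of the probe sets other than controls. Groups were compared with limma (lmFit, eBayes with the trend option, two-sided tests, Benjamini-Hochberg over all tested genes, threshold 0.05; 2 residual and 8.71 prior degrees of freedom). The relative scales subtract from each array the mean log2 value of a reference list. The procedure was tested on simulated data. The 9 genes and 12 lists were chosen with earlier results of these data known. Besides the 9 genes, each list gives names to at most 4 called genes with its largest differences and at most 2 further bright ones. Atoh1, Car4, Slc5a1, Clca1, Spdef, Cldn4, Esrp1, Prss8 and Reg3g fall outside that rule. Alternatives were other pseudocounts, filters, scalings and probe set rules, no trend, a replicate block and each array left out. Analyses used R 4.3.3, limma 3.58.1, Python 3.11.15, pandas 2.3.3, numpy 2.4.6 and matplotlib 3.10.9.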

Additional observations from a re-analysis of the deposited data

How the results depend on the processing

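Each of the 8 secretory genes was called lower under every alternative run, except that Oit1 left the test at the 60th percentile filter, where 7 were called. The median log2 difference of the secretory genes was -1.40 with that filter, -1.37 with equal array medians and -2.05 with the macrophage markers set equal (range -1.54 to -1.51 with an array left out). The absorptive median was -2.10 and -1.74 with pseudocounts of 1 and 64, -0.94 without a filter, -2.04 at the 60th percentile filter, -1.74 with equal array medians, -2.43 with the macrophage markers set equal, -1.43 with the mean of each gene's probe sets, and -2.05 to -1.56 with an array left out. Without a filter 10 dim genes join that list. The median of all tested genes shifted by 0.16 with equal array medians and by -0.53 with the macrophage markers set equal. Genes higher over the whole array numbered 554, against 356 without a filter, 1050 with equal array medians (492 lower), 87 with the macrophage markers set equal (5990 lower), 199 without the variance trend (lower 517) and 291 to 476 with an array left out (349 without vehicle replicate 1, 291 without imatinib replicate 1; 506 to 664 lower).

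On the absorptive scale the secretory genes higher and lower were 0 and 5 without a filter, and 1 was lower at the 60th percentile filter; with an array left out 3 to 4 were higher and 2 to 3 lower. Without a filter Agr2 (-0.24), Tff3 (-0.013), Zg16 (-0.41) and Spink4 (-0.67) reversed, and Spink4 also did with a pseudocount of 64 (-0.11), quantile normalization (-0.077) and the mean of probe sets (-0.045). On the epithelial scale 1 was lower with a pseudocount of 1 or 64, at the 60th percentile filter and without Cldn4 and Esrp1, and 3 to 5 were higher and 0 to 2 lower with an array left out, 3 higher without vehicle replicate 1, 0 lower without vehicle replicate 2 and 1 lower without vehicle or imatinib replicate 1. On that scale Spink4 lost its call under 8 alternatives, Oit1 under 5, Lypd8 with a pseudocount of 1 (-0.46) and without vehicle replicate 2 (-0.53), and Zg16 without vehicle replicate 1 (0.56). The causes were not tested. Deviations of same-numbered arrays correlated at -0.13 across genes, so the numbers are not shown to pair the arrays; with the replicate block 430 genes were higher and 635 lower, 8 secretory genes were lower, and on the epithelial scale Spink4 was not called. With crossed pairs, added after seeing the data, 875 were higher and 1087 lower.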

Other observations

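Few markers of other epithelia were bright enough to test. Of 11 genes listed for gastric mucous and acid-secreting cells, 3 were tested. The gastric trefoil gene Tff1 had signals of 587 and 472 with vehicle and 337 and 369 with imatinib (log2 difference -0.54 ± 0.15, SE; limma adjusted p = 0.031; not called with equal array medians), and the proton pump genes Atp4a (0.45) and Atp4b (-0.35) were not called. Of 11 pancreatic acinar genes, 3 were tested and the elastase gene Cela1 was lower (-0.60 ± 0.15; not called with equal array medians), while Prss2 was not called and Ctrb1 (0.99, 95% interval -0.16 to 2.14) was called higher only with equal array medians (1.15), among the 4 scalings compared. Pou2f3, a factor of tuft cells and the 1 tested gene of 9 in that list, was not called (-0.11 ± 0.29). Of 9 genes listed for intestinal stem cells, 3 were tested. Cd44, which leukocytes also express, was higher (0.36 ± 0.09; -0.16 with the macrophage markers set equal), and Slc12a2 and Axin2 were not called.

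Among genes below the signal filter, Reg3g, a secreted lectin of the gut epithelium, had signals of 244 and 120 with vehicle and 14.4 and 17.1 with imatinib (limma adjusted p = 0.015 when the filter was dropped).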
